A study of Sus scrofa with 12 samples.

Results

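Solute carriers are membrane proteins that move sugars, amino acids, ions, nucleotides, lipids and vitamins across the plasma membrane, or across the membranes of mitochondria, lysosomes and vesicles. Most either let their substrate run down its gradient or couple it to the gradient of sodium or protons, and the SLC25 family forms the main set of carriers of the inner mitochondrial membrane. In fat cells they are known for insulin-regulated glucose uptake, and in ovarian granulosa cells for passing nutrients towards the oocyte. The genes described here are those whose single symbol in the array annotation begins with SLC, a family number, A and a member number. There were 111 such genes among 6765 named genes, and each is represented by the probe set with the highest mean over the 12 arrays. By substrate, 13 carry sugars, 2 monocarboxylates, 17 amino acids, 14 inorganic ions, 12 metals, 20 organic cations, vitamins and other organic solutes, 5 nucleosides or nucleotide sugars and 4 lipids or acyl groups, and 21 belong to the mitochondrial carrier family. The remaining 3 (SLC2A4RG, SLC9A3R1 and SLC9A3R2) match the symbol rule but encode a transcription factor and 2 scaffold proteins, not transporters.

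RNA of pig cells was measured on the Affymetrix porcine genome array in 4 groups of 3 arrays. DFAT are dedifferentiated fat cells, which came from mature adipocytes by ceiling culture (buoyant fat cells settle on the top surface of a filled flask), and they were harvested at semiconfluence. MA are the mature adipocytes themselves, isolated from fat tissue. DFOG are dedifferentiated granulosa cells, which grew to semiconfluence in vitro, and GC are granulosa cells taken from ovarian follicles. The labels name no breed, age, sex or genotype. They call the replicates biological but name no animal or culture behind them, so each p-value here reflects the spread between these samples. They list no cultured cells that kept their identity, so culture and dedifferentiation cannot be told apart. The question was which functions rise or fall when each cell type loses its identity.

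Values are deposited log2 levels, and a difference of 1 is a doubling. DFOG 2 and DFOG 3 differed far less than other replicates did (SD of the difference 0.0741, against 0.310 to 0.621 for the other 11 pairs of replicates), so they count as 1 sample, and of 2 DFOG values below the second is their mean. Checked against markers, the labels held, since all 6 adipocyte markers measured fell in DFAT and 6 of 8 granulosa markers fell in DFOG, while the other 2, CYP19A1 and FOXL2, had means under 6 in GC itself. Differences are tested with limma over 23999 probe sets, and "rose" and "fell" mean a Benjamini-Hochberg adjusted p under 0.05. The 3′ minus 5′ signal of the actin control, a measure of RNA integrity, was 0.61 ± 0.33 in DFAT and 1.88 ± 0.52 in MA (SD, n = 3 each), and 0.39 ± 0.33 in DFOG (n = 2) and 1.35 ± 0.55 in GC (n = 3). Macrophage markers were lower in DFAT for 6 of 10, with a summed linear level of 319.8 to 431 in DFAT and 699 to 1217 in MA, where LAPTM5, AIF1 and PTPRC had means under 6. Endothelial markers were lower for 4 of 9, at 352 to 414 in DFAT and 641 to 1143 in MA, where CDH5, KDR, TEK, FLT1 and TIE1 had means under 6. Of 3 erythrocyte markers ALAS2 was lower in DFAT (-0.49, adjusted p = 0.0438), with mean levels under 6 in every group. In DFOG relative to GC, 1 macrophage marker (CD14, 1.55) and 1 endothelial marker (PECAM1, 1.77) were higher and 1 endothelial marker (TIE1, -2.47) lower. The summed macrophage level was 295 to 335 in DFOG and 239 to 275 in GC, and the endothelial one 349.8 to 401 in DFOG and 474 to 614 in GC. The part of these marker differences in the results was not tested.

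Of the 111 SLC genes, 20 rose and 21 fell in DFAT relative to MA, and 70 did not pass the test. Of all probe sets tested, 15.7% rose and 16.4% fell in this comparison, and of all named genes 20.7% rose and 20.4% fell. The median change of the SLC genes was -0.10, and that of all probe sets was -0.07. As shares, 18.02% of the SLC genes rose and 18.9% fell. In DFOG relative to GC, 21 SLC genes rose and 9 fell, or 18.9% and 8.11%. Of all probe sets, 12.3% rose and 12.6% fell here, and of named genes 17.3% rose and 13.4% fell. The medians were 0.08 for SLC genes and -0.02 for all probe sets. The shares of SLC genes lie close to those of named genes or below them. These shares of all probe sets and of named genes also apply beside each class and list count below. Within a bulk sample, fewer cells of a type and less RNA per cell cannot be told apart.

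Without DFOG 1, the number of SLC genes that rose in DFOG was 13. With the actin signal as a covariate, 14 rose and 17 fell in DFAT, and 14 rose and 8 fell in DFOG. That signal ran from 0.33 to 0.97 in DFAT and 1.50 to 2.47 in MA. In DFOG it ran from 0.15 to 0.62, and in GC from 0.72 to 1.76. Cultured and isolated samples thus did not overlap in it, so this covariate cannot tell RNA integrity from culture, here or for single genes below. When each array was centred on its poly-A controls, probe sets for transcripts that are spiked into the RNA, the median of all probe sets moved to 0.55 for DFAT minus MA and to -0.72 for DFOG minus GC. The counts then read 38 higher and 11 lower in DFAT, and 8 higher and 32 lower in DFOG, so every direction below is set against the rest of the array's RNA. Of the 111, 27 SLC genes had no group mean of 6 or more. Of these, limma called 0 in either dedifferentiation (1 had an unadjusted p under 0.05 in DFAT minus MA and 0 did in DFOG minus GC), and the other 84 hold all 41 and 30 calls. This split is not independent of the calls, since a gene that is high in 1 group alone counts among the 84.

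**Figure D1:**
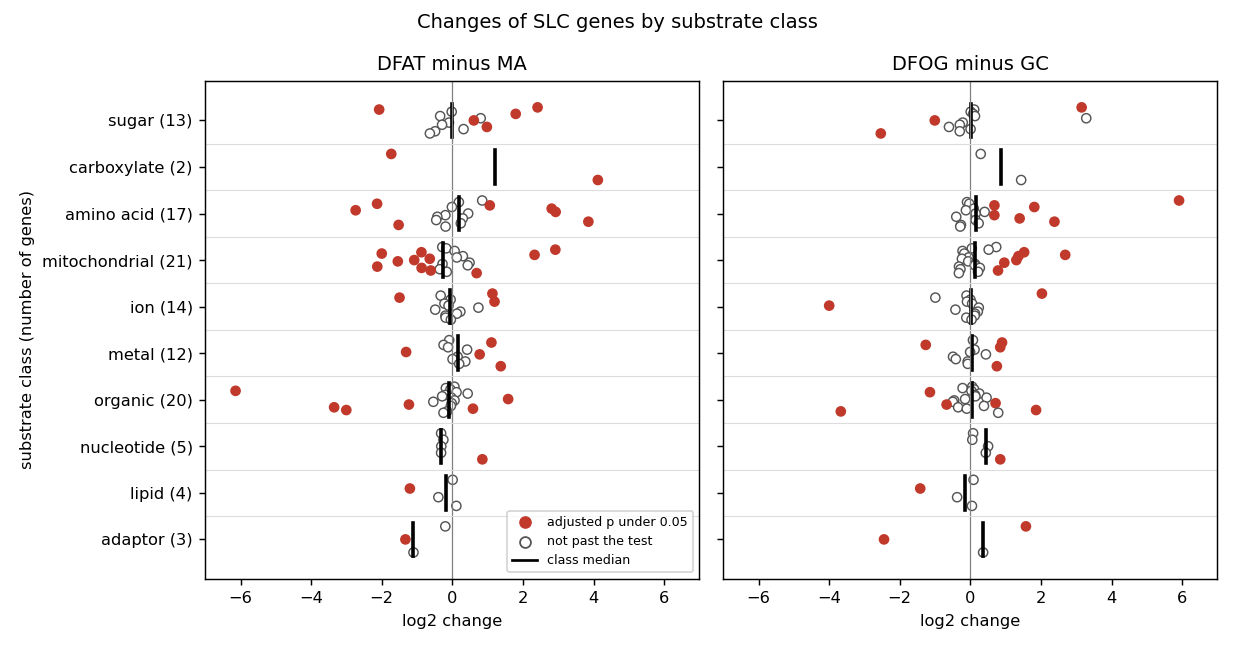
Log2 change of each SLC gene (1 point per gene) in DFAT minus MA (left) and DFOG minus GC (right), by substrate class with the number of genes in brackets. Filled points passed an adjusted p under 0.05 and black bars are class medians. The mitochondrial median is -0.28 on the left and 0.13 on the right.

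Of 13 sugar transporters, 4 rose and 1 fell in DFAT. With the actin covariate 2 rose and 1 fell there. In DFOG 1 rose and 2 fell, and with poly-A centring 5 rose and 1 fell in DFAT, and 1 rose and 6 fell in DFOG. The medians were close to 0, -0.02 for DFAT minus MA and 0.01 for DFOG minus GC. SLC2A1 encodes GLUT1, the carrier of basal glucose uptake, and it rose in both. Its levels were 10.91, 12.01 and 11.09 in DFAT, against 8.98, 8.76 and 9.03 in MA. They were 10.61 and 9.99 in DFOG, against 7.51, 7.02 and 6.91 in GC. Every cultured sample lay above every isolated sample of its own origin. The change was 2.41 ± 0.29 (SE, adjusted p = 6.77e-05) in DFAT, or 5.33-fold, and 3.15 ± 0.32 (SE, adjusted p = 3.22e-05) in DFOG, or 8.89-fold.

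SLC2A3 encodes GLUT3, a high-affinity glucose carrier best known from neurons and white blood cells. Its levels were 6.97, 10.08 and 9.59 in DFAT, against 7.01, 6.96 and 7.29 in MA. DFAT 1 lay within the MA range and the other 2 DFAT samples well above it. The change of 1.79 ± 0.62 (SE, adjusted p = 0.0464) passed the test narrowly. It lost the call without any 1 of the MA or GC samples, DFAT 2, DFAT 3 or DFOG 1 (adjusted p = 0.0533 to 0.172) in the fit of DFAT and MA alone (0.0951), with quantile normalization again (0.0522) and with the actin covariate (1.47, 0.367), and without DFAT 1 it was 2.75 (2.15e-05). In DFOG it was 10.39 and 9.54, against 10.04, 9.83 and 9.77 in GC, a change of 0.08 ± 0.69 (SE, adjusted p = 0.96).

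SLC16A3 encodes the monocarboxylate carrier MCT4, which exports lactate from cells with active glycolysis. It was at 7.32, 10.15 and 9.33 in DFAT, against 4.78, 4.59 and 5.07 in MA. The groups did not overlap, although DFAT 1 was again the lowest of its group. The rise of 4.12 ± 0.62 (SE, adjusted p = 3.66e-04), 17.4-fold, was the largest of any SLC gene in DFAT. DFOG samples had 10.08 and 8.68 and GC samples 8.60, 7.80 and 7.42, a change of 1.44 ± 0.69 (SE, adjusted p = 0.171). Without DFOG 1 it was 0.74 (adjusted p = 0.721) and with the actin covariate 0.75 (0.675), while without DFAT 1, whose distance from DFAT 2 and 3 enters the shared spread, the same change of 1.44 passed (0.0356), as did 1.65 with array weights (0.0377). The other monocarboxylate family member, SLC16A13, fell by 1.73 on the log2 scale in DFAT (adjusted p = 8.38e-05) and was 0.29 ± 0.24 (SE, adjusted p = 0.456) in DFOG.

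SLC2A5, the fructose carrier GLUT5, was singled out here after its values were seen. It had 7.16, 11.76 and 11.04 in DFAT and 7.39, 10.45 and 9.71 in MA. Both groups contained 1 low sample, DFAT 1 and MA 1, and they overlapped, with a change of 0.80 ± 1.05 (SE, adjusted p = 0.624). The change was 2.22 without DFAT 1 (adjusted p = 0.0373), -0.09 without MA 1 (0.965), -0.08 without DFAT 2 (0.968), 0.28 without DFAT 3 (0.901) and -0.79 with the actin covariate (0.796), so its direction rests on single samples. In DFOG it was 8.07 and 8.05, against 5.12, 4.19 and 5.02 in GC. These groups lay far apart, but the shared spread, which holds the wide DFAT and MA samples, left 3.28 ± 1.18 (SE, adjusted p = 0.0657). The fit of DFOG and GC alone gave the same change with an adjusted p of 0.000742. It also passed with array weights (3.42, 0.0146) and without DFAT 1 (0.00619), among other alternatives. It did not pass with the actin covariate (2.08, 0.431), without GC 1 (3.45, 0.0888), GC 2 (2.99, 0.161) or GC 3 (3.41, 0.119). Nor did it pass without MA 2 (0.0729) or MA 3 (0.0902), among other alternatives. Without DFOG 1 the change was 3.27, but that fit leaves only 1 DFOG sample.

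SLC2A4 encodes GLUT4, the carrier that insulin brings to the surface of fat and muscle cells. Its levels were 6.72, 6.70 and 6.31 in DFAT, against 7.15, 7.002 and 6.61 in MA. The ranges overlapped, and the change of -0.35 ± 0.18 (SE, adjusted p = 0.185) had a 95% interval of -0.75 to 0.06. Another probe set of SLC2A4 averaged 4.82 in DFAT and 6.36 in MA, and it fell by 1.54 on the log2 scale (adjusted p = 0.000155), so the array gives 2 answers for this gene. With the mean over its probe sets SLC2A4 fell by 0.70 (adjusted p = 0.00463). SLC2A12, which encodes the related carrier GLUT12, fell clearly. It had 4.81, 5.18 and 4.67 in DFAT, against 7.17, 6.67 and 7.04 in MA. The groups did not overlap, the change was -2.07 ± 0.19 (SE, adjusted p = 7.75e-06), and in DFOG it was 0.11 ± 0.21 (SE, adjusted p = 0.799).

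The remaining sugar carriers past the test changed less or in 1 origin. SLC50A1, of the SWEET sugar carrier family, rose by 0.98 ± 0.19 (SE, adjusted p = 0.00227) in DFAT. SLC2A8, the intracellular carrier GLUT8, rose in DFAT by 0.61 ± 0.18 (SE, adjusted p = 0.0214) and fell in DFOG by 1.01 (adjusted p = 0.00315). Its rise in DFAT was lost without DFAT 1 (adjusted p = 0.0572), without MA 2 (0.0907) and with the actin covariate (0.0839). SLC5A4, a member of the sodium-glucose cotransporter family, had 6.37 and 6.85 in DFOG, against 8.94, 9.30 and 9.22 in GC. Every GC sample lay above both DFOG samples, a change of -2.54 ± 0.30 (SE, adjusted p = 9.44e-05).

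**Figure D2:**
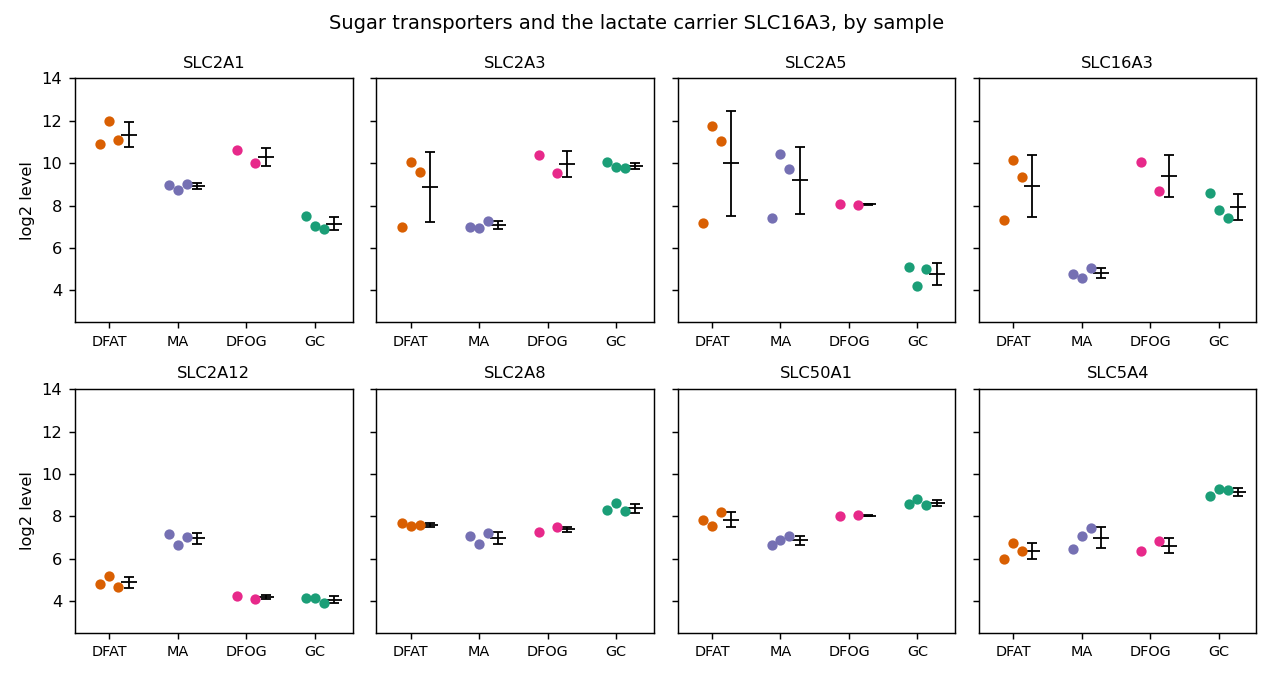
Log2 levels of 7 sugar carriers and of the lactate carrier SLC16A3 in each sample (points), with the group mean ± SD beside them (n = 3, and n = 2 for DFOG). DFAT 1 is the lowest DFAT sample for SLC2A3, SLC2A5 and SLC16A3.

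Of 12 genes measured for insulin signalling and the movement of GLUT4, 0 rose in DFAT by limma (0 also at an unadjusted p under 0.05) and 3 fell. Those were the insulin-signalling kinase AKT2 (-2.23), TXNIP (-2.01), which restrains glucose uptake, and the vesicle fusion protein VAMP2 (-1.02). In DFOG 2 rose, RAB10 (0.85) and PDPK1 (0.62), and 3 fell, VAMP2 (-1.53), TXNIP (-1.51) and TBC1D1 (-1.43). With poly-A centring 2 rose and 2 fell in DFAT, and 0 rose and 6 fell in DFOG.

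Of the 17 amino acid transporters, 4 rose and 3 fell in DFAT, and 6 rose in DFOG, where limma called 0 lower (0 also at an unadjusted p under 0.05). Poly-A centring gave 9 higher and 3 lower in DFAT, and 3 higher and 4 lower in DFOG. The medians were 0.18 for DFAT minus MA and 0.15 for DFOG minus GC. SLC7A1 encodes CAT1, the carrier of arginine and lysine, and it rose in both. It had 10.97, 10.52 and 10.61 in DFAT, against 6.64, 6.72 and 7.17 in MA. DFOG samples had 10.05 and 10.02, against 8.10, 7.48 and 7.39 in GC. Neither pair of groups overlapped. The rise was 3.85 ± 0.22 (SE, adjusted p = 3.03e-07) in DFAT, 14.5-fold, and 2.38 ± 0.25 (SE, adjusted p = 3.86e-05) in DFOG, 5.21-fold, and the first exceeded the second by 1.47 ± 0.34 (SE, adjusted p = 0.0082).

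SLC1A1 encodes EAAT3, a carrier of glutamate, aspartate and cysteine. Its levels were 10.54 and 10.34 in DFOG, against 4.34, 4.62 and 4.63 in GC. No other SLC gene rose as far in either dedifferentiation, 5.91 ± 0.34 (SE, adjusted p = 4.71e-07), or 60.2-fold, against low GC levels. Of its 4 other probe sets 2 rose as well, by 1.86 and 1.94, and 2 did not pass the test, with no group mean above 3.67. The mean over its probe sets rose by 2.02 (adjusted p = 9.96e-06). In DFAT SLC1A1 was 6.84, 5.59 and 6.58, against 5.92, 5.07 and 5.49 in MA, a change of 0.85 ± 0.31 (SE, adjusted p = 0.0573).

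SLC1A5 encodes ASCT2, a carrier of glutamine and other neutral amino acids, and SLC3A2 the heavy chain that takes several light chains to the cell surface. For SLC1A5 the levels were 9.24 and 9.45 in DFOG, against 7.82, 7.25 and 7.53 in GC. All DFOG samples were higher, by 1.81 ± 0.26 (SE, adjusted p = 3.61e-04), whereas DFAT (10.63, 11.10 and 11.41) and MA (10.77, 11.10 and 11.30) overlapped with a change of -0.01 ± 0.23 (SE, adjusted p = 0.977). SLC3A2 rose in DFOG by 1.40 ± 0.31 (SE, adjusted p = 0.00658), a call lost without DFOG 1 (1.11, adjusted p = 0.0879), with the actin covariate (0.0756) and with poly-A centring (0.139), and it was 0.30 ± 0.28 (SE, adjusted p = 0.475) in DFAT. The difference between these changes was -1.82 ± 0.35 (SE, adjusted p = 0.00291) for SLC1A5, and for SLC3A2 it did not pass the test, at -1.10 ± 0.42 (SE, adjusted p = 0.0837). SLC1A4, the neutral amino acid carrier ASCT1, rose in DFAT by 1.06 ± 0.20 (SE, adjusted p = 0.00187). Its rise in DFOG, 0.68 ± 0.23 (SE, adjusted p = 0.0487), was lost without any 1 of DFOG 1 (0.48, adjusted p = 0.354), DFOG 2, GC 1, GC 2, DFAT 2 or the MA samples (0.0513 to 0.137) in the fit of DFOG and GC alone (0.0995), with the actin covariate (0.0647) and with a trended robust variance (0.072), and was -0.02 with poly-A centring. SLC38A9, the arginine sensor of the lysosome membrane, rose in DFOG by 0.68 ± 0.21 (SE, adjusted p = 0.0392). That call was lost without any 1 GC sample (0.0686 to 0.0915) or MA sample (0.0515 to 0.0559), in the fit of DFOG and GC alone (0.057) and with the mean over its probe sets (0.21, adjusted p = 0.574), and the change was -0.02 with poly-A centring.

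Other members changed in DFAT and did not pass the test in DFOG. SLC38A1 encodes SNAT1, a sodium-coupled glutamine carrier, and had 7.97, 7.74 and 8.03 in DFAT, against 5.08, 5.21 and 4.67 in MA. The groups lay apart, with a rise of 2.93 ± 0.24 (SE, adjusted p = 3.75e-06), while DFOG (7.94 and 8.81) and GC (7.90, 8.24 and 7.77) overlapped, at 0.40 ± 0.27 (SE, adjusted p = 0.339). SLC1A6 encodes the glutamate carrier EAAT4, best known from the cerebellum. It had 7.07, 6.84 and 5.88 in DFAT, against 3.85, 3.56 and 3.93 in MA, a rise of 2.81 ± 0.27 (SE, adjusted p = 1.08e-05), and the MA, DFOG and GC means were all under 4.

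The 3 amino acid carriers that fell in DFAT were high in MA relative to their own levels in the other groups. SLC36A2 encodes PAT2, a proton-coupled carrier of glycine, alanine and proline that marks brown and beige fat cells in mice. It had 3.99, 4.14 and 4.18 in DFAT, against 6.96, 7.30 and 6.27 in MA, with no overlap and a change of -2.74 ± 0.23 (SE, adjusted p = 4.17e-06). SLC1A3, the glutamate carrier EAAT1, had 5.23, 6.01 and 6.12 in DFAT, against 8.20, 8.003 and 7.56 in MA, a change of -2.13 ± 0.25 (SE, adjusted p = 5.06e-05). SLC7A7, the light chain y+LAT1 known from gut, kidney and macrophages, had 5.99, 5.42 and 5.62 in DFAT, against 7.57, 7.26 and 6.77 in MA, a change of -1.52 ± 0.22 (SE, adjusted p = 3.17e-04). Macrophage markers fell between the same groups, and their part in these falls was not tested.

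**Figure D3:**
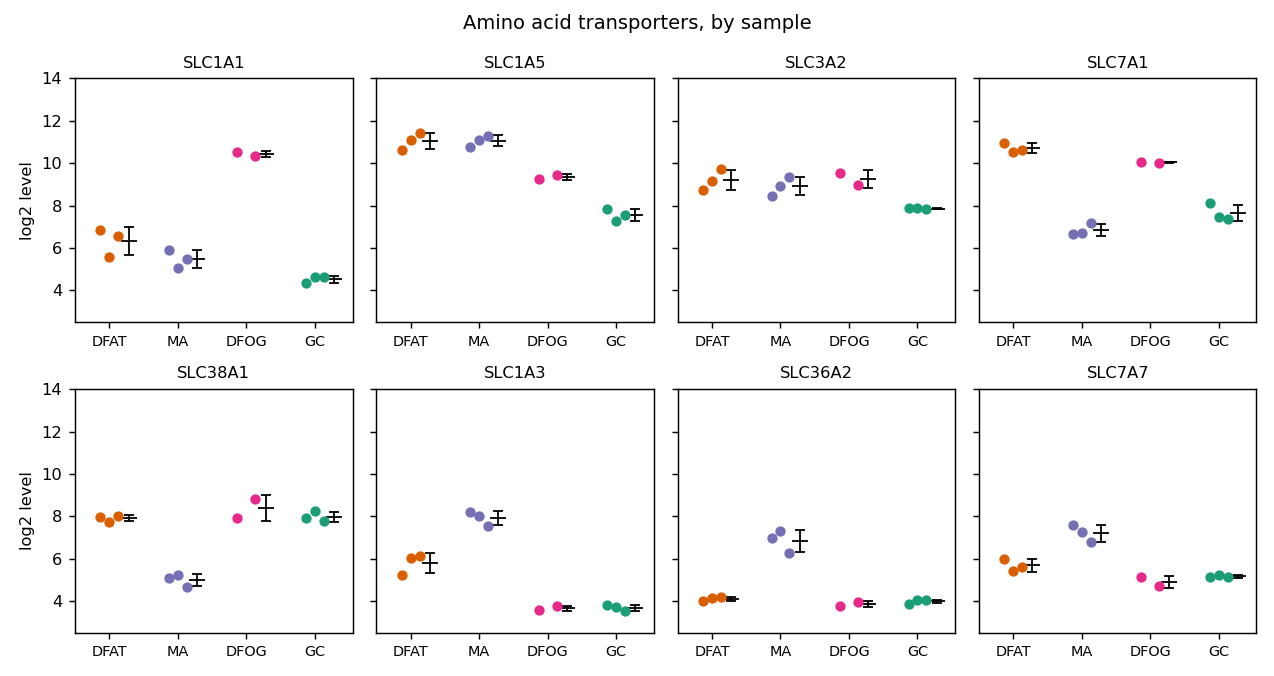
Log2 levels of 8 amino acid carriers in each sample (points), with the group mean ± SD beside them (n = 3, and n = 2 for DFOG). SLC7A1 is higher in both cultured groups, SLC1A1 stands out in DFOG, and SLC1A3, SLC36A2 and SLC7A7 are highest in MA.

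Of 10 genes of the amino acid response and serine synthesis, 4 rose and 1 fell in DFAT, and 5 rose and 1 fell in DFOG (6 and 1, and 4 and 1, with poly-A centring). Of all probe sets, 15.7% rose and 16.4% fell in DFAT, and 12.3% rose and 12.6% fell in DFOG. The mitochondrial folate enzyme MTHFD2 rose by 4.06 in DFAT and 2.05 in DFOG. Asparagine synthetase, ASNS, rose by 2.34 in DFAT and 1.85 in DFOG. PHGDH, the first enzyme of serine synthesis, rose by 2.25 in DFAT and 1.55 in DFOG. PSAT1, of the same pathway, rose by 4.02 in DFOG and changed by -0.37 ± 0.30 (SE, adjusted p = 0.397) in DFAT. The stress-induced factor ATF3 had changes of -1.80 in DFAT and -3.27 in DFOG, both falls.

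Of 21 members of the mitochondrial carrier family, 8 fell and 3 rose in DFAT, or 38.1% and 14.3%, where 20.4% of named genes fell and 20.7% rose. In DFOG 6 rose, or 28.6% against 17.3% of named genes, and limma called 0 lower (0 also at an unadjusted p under 0.05). The medians were -0.28 for DFAT minus MA and 0.13 for DFOG minus GC. Poly-A centring turned the balance round in both, to 7 higher and 3 lower in DFAT and to 2 higher and 7 lower in DFOG. With the actin covariate 3 fell and 2 rose in DFAT. Between the changes themselves, 7 of the 21 were more negative in DFAT than in DFOG and 2 more positive, or 33.3% and 9.52%, where 11.7% and 11.6% of all probe sets and 15.9% and 13.2% of named genes were.

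The adenine nucleotide carriers, which exchange ADP for ATP, gave different directions in DFAT. SLC25A4, the isoform known from heart and muscle, had 9.43, 10.21 and 10.09 in DFAT, against 11.69, 12.24 and 12.18 in MA. It fell by 2.13 on the log2 scale, or 4.37-fold (adjusted p = 4.82e-04), with no overlap, and the change in DFOG was -0.32 ± 0.37 (SE, adjusted p = 0.63). SLC25A5, the isoform of proliferating cells, fell in DFAT by 0.61 (adjusted p = 0.0121) and rose in DFOG by 0.78 ± 0.18 (SE, adjusted p = 0.00751). With the actin covariate its rise in DFOG was lost (adjusted p = 0.0704). Its fall in DFAT was lost there too, since the 3 falls left were those of SLC25A4, SLC25A20 and SLC25A36. SLC25A6 rose in DFAT by 0.69 ± 0.20 (SE, adjusted p = 0.0197), lost without MA 1 (0.61, adjusted p = 0.0671), DFAT 1 (0.61, 0.0605) or DFAT 3 (0.62, 0.0663) and with the actin covariate (0.36, 0.464), and was -0.33 ± 0.22 (SE, adjusted p = 0.353) in DFOG. With poly-A centring SLC25A5 was at 0.0072 in DFAT and 0.08 in DFOG (adjusted p = 0.982 and 0.816), while SLC25A4 (-1.51) fell and SLC25A6 (1.31) rose in DFAT, and SLC25A6 fell in DFOG (-1.03).

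SLC25A20 encodes the carnitine-acylcarnitine carrier, which takes fatty acids into mitochondria for oxidation. It had 9.33, 8.67 and 8.80 in DFAT, against 11.30, 10.66 and 10.83 in MA. The groups lay well apart, DFAT being 4-fold lower at -2.001 ± 0.23 (SE, adjusted p = 4.43e-05), and in DFOG the change was -0.17 ± 0.25 (SE, adjusted p = 0.72). With poly-A centring SLC25A20 fell in both, by limma at -1.38 in DFAT (adjusted p = 0.000418) and -0.88 in DFOG (0.0252). SLC25A1, the citrate carrier that supplies fatty acid synthesis, was 9.99, 10.84 and 11.07 in DFAT, against 10.58, 11.03 and 11.15 in MA. Its change was -0.29 ± 0.31 (SE, adjusted p = 0.544) in DFAT and 0.73 ± 0.35 (SE, adjusted p = 0.162) in DFOG. The pyrimidine nucleotide carrier SLC25A36 fell by 1.55 in DFAT (adjusted p = 1.53e-05), and SLC25A46, an outer membrane protein of mitochondrial shape, fell by 0.87 (adjusted p = 0.0154), a call lost with poly-A centring (0.531) and the actin covariate (0.0808), and without MA 2 the change was -0.58.

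SLC25A33, a further pyrimidine nucleotide carrier, and SLC25A17, a peroxisomal member of the family, fell in DFAT and rose in DFOG. SLC25A17 was at 10.73, 10.05 and 10.84 in DFAT, against 11.75, 11.39 and 11.11 in MA. It had 10.95 and 10.75 in DFOG, against 9.63, 9.28 and 9.06 in GC. It fell in DFAT (-0.88 ± 0.25 SE, adjusted p = 0.0182), a call lost without DFAT 2 (adjusted p = 0.0696) or MA 1 (0.0725), and rose in DFOG (1.52 ± 0.28 SE, adjusted p = 0.00191). SLC25A33 fell in DFAT (-1.08 ± 0.20 SE, adjusted p = 0.00153) and rose in DFOG (1.30 ± 0.22 SE, adjusted p = 0.00135). Both falls were lost with poly-A centring and with the actin covariate (adjusted p = 0.0669 to 0.409), and the rise of SLC25A33 with poly-A centring (0.128). The mean over the probe sets of SLC25A33 was -0.60 in DFAT and 0.73 in DFOG, both past the test (0.0194 and 0.0159). Before culture MA stood above GC by 2.09 for SLC25A17 and 2.03 for SLC25A33, and after it the DFAT minus DFOG differences were -0.31 ± 0.28 (SE, adjusted p = 0.72) and -0.35 ± 0.22 (SE, adjusted p = 0.525).

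The rises were led by SLC25A12 and SLC25A21. SLC25A12, an aspartate-glutamate carrier of the malate-aspartate shuttle, had 9.85, 9.56 and 9.42 in DFAT, against 6.86, 6.67 and 6.55 in MA. No DFAT sample came near the MA range, a change of 2.92 ± 0.19 (SE, adjusted p = 7.61e-07), and in DFOG it was 0.52 ± 0.21 (SE, adjusted p = 0.109). SLC25A21 carries oxodicarboxylates such as 2-oxoadipate, and rose in DFAT (2.33 ± 0.18 SE, adjusted p = 2.37e-06) and in DFOG (2.69 ± 0.20 SE, adjusted p = 2.96e-06). SLC25A24, which exchanges ATP-magnesium for phosphate, rose in DFOG by 1.36 ± 0.28 (SE, adjusted p = 0.00441), lost without DFOG 1 (1.17, adjusted p = 0.057), with poly-A centring (0.66, 0.0983) and with the actin covariate (1.10, 0.0637). The iron carrier SLC25A37 rose in DFOG by 0.96 ± 0.30 (SE, adjusted p = 0.0392), lost without DFOG 1 (adjusted p = 0.0833), any 1 GC sample (0.0514 to 0.0989), any 1 MA sample (0.0517 to 0.0569) or DFAT 2 (0.0516) and with poly-A centring (0.26, 0.573).

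**Figure D4:**
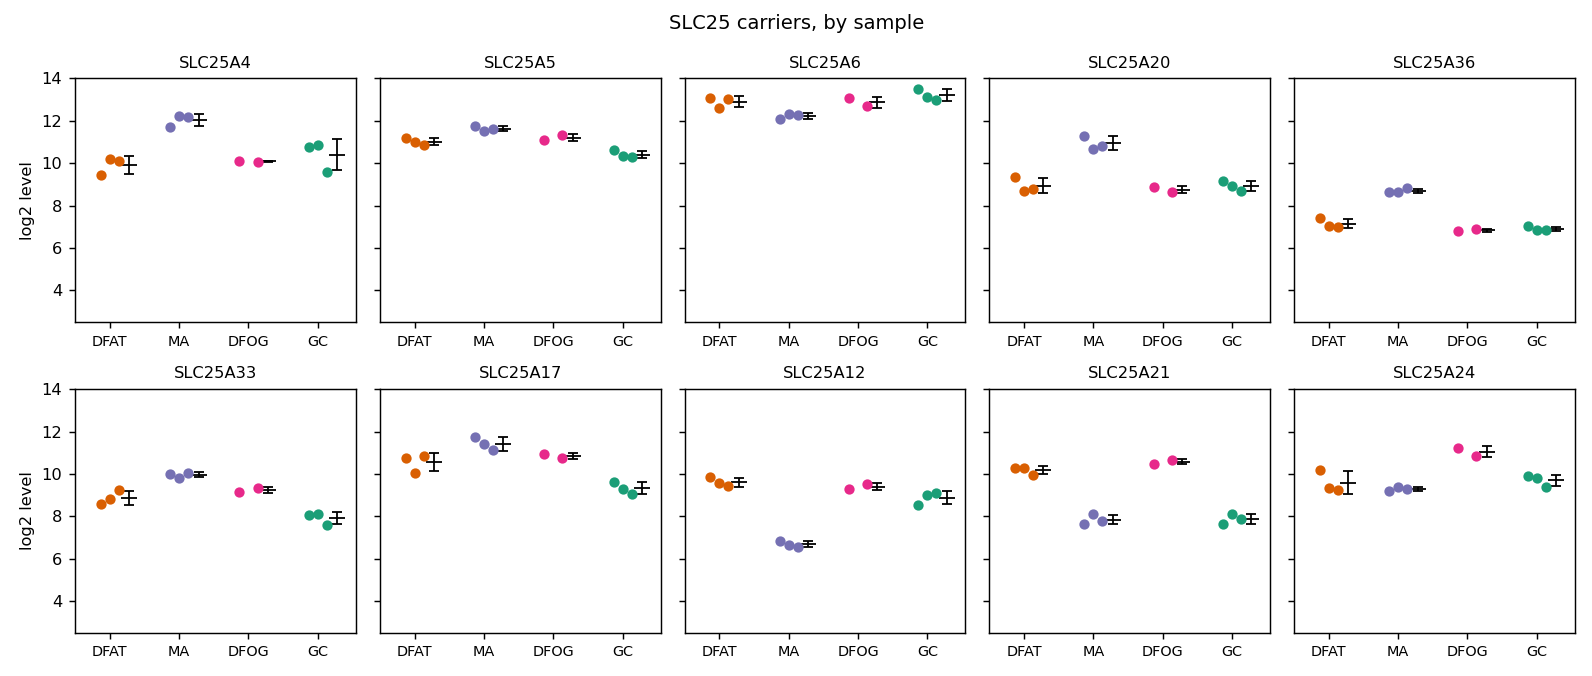
Log2 levels of 10 SLC25 carriers in each sample (points), with the group mean ± SD beside them (n = 3, and n = 2 for DFOG). SLC25A4, SLC25A20 and SLC25A36 are highest in MA, and SLC25A21 is higher in both cultured groups.

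Of 19 genes listed beside these carriers, with symbols outside the rule, 9 fell and 3 rose in DFAT, and 3 fell and 4 rose in DFOG. Of all probe sets, 16.4% fell and 15.7% rose in DFAT, and 12.6% fell and 12.3% rose in DFOG. With poly-A centring 6 fell and 5 rose in DFAT, and 4 fell and 0 rose in DFOG. Pyruvate carboxylase, PC, had the largest fall in DFAT (-5.21), followed by UCP3 (-3.09) and the pyruvate carrier subunit MPC1 (-2.48). UCP3, an uncoupling protein, is itself of the mitochondrial carrier family but lacks an SLC25 symbol here. CPT1A, which starts fatty acid import (2.81), and PCK2 (2.67) rose in DFAT, and they rose by 1.30 and 1.26 in DFOG.

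Among the 14 ion carriers, 2 rose and 1 fell in DFAT, and 1 rose and 1 fell in DFOG (5 and 0, and 1 and 3, with poly-A centring, and 1 and 1, and 1 and 2, with the actin covariate). SLC41A1 encodes a magnesium carrier. Its levels were 8.003 and 7.41 in DFOG, against 12.13, 12.01 and 10.98 in GC. Both DFOG samples lay far below all GC samples, 16-fold lower, with a change of -4.000 ± 0.40 (SE, adjusted p = 2.66e-05). In DFAT it was 6.41, 7.61 and 7.38, against 7.07, 7.22 and 7.44 in MA, a change of -0.11 ± 0.36 (SE, adjusted p = 0.861). SLC12A4, the potassium-chloride cotransporter KCC1, rose in DFOG by 2.03 ± 0.37 (SE, adjusted p = 0.00212), and by 1.31 with the actin covariate (adjusted p = 0.0355). It rose in DFAT by 1.14 ± 0.33 (SE, adjusted p = 0.0226), lost without DFAT 2 (0.88, adjusted p = 0.0902), MA 1 (1.03, 0.0745) or MA 2 (1.13, 0.0617) and with the actin covariate (0.18, 0.817). The anion exchanger SLC26A6 rose in DFAT by 1.19 ± 0.14 (SE, adjusted p = 6.87e-05), and SLC26A11 of the same family fell by 1.50 (adjusted p = 0.00536), a call lost with poly-A centring (-0.88, 0.0923), while the actin covariate gave -2.30 (0.00576).

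The sodium pump and its FXYD regulators, on which sodium-coupled carriers depend, rose in 4 of 6 measured genes in DFAT and 3 of 6 in DFOG. Of all probe sets, 15.7% rose in DFAT and 12.3% in DFOG. Limma called 0 lower in either (0 also at an unadjusted p under 0.05), and poly-A centring gave 4 and 2 higher with 0 lower. The pump subunit ATP1B1 rose in DFAT (4.08) and changed by 0.16 ± 0.36 (SE, adjusted p = 0.836) in DFOG. FXYD5 rose by 3.38 in DFAT and 4.11 in DFOG, and FXYD6 by 3.03 in DFAT and 3.03 in DFOG.

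Of 12 metal carriers, 3 rose and 1 fell in each dedifferentiation, but with poly-A centring 6 rose and 0 fell in DFAT, and 0 rose and 2 fell in DFOG. With the actin covariate 2 rose and 1 fell in DFAT, and 1 rose and 1 fell in DFOG. The zinc carrier SLC39A7 of the endoplasmic reticulum rose by 1.37 ± 0.19 (SE, adjusted p = 2.33e-04) in DFAT and 0.75 ± 0.22 (SE, adjusted p = 0.0261) in DFOG. SLC11A2, the iron carrier DMT1, rose by 1.11 ± 0.19 (SE, adjusted p = 9.51e-04) in DFAT and 0.90 ± 0.21 (SE, adjusted p = 0.00973) in DFOG. Of its other probe sets, 1 also rose in DFAT (0.92, adjusted p = 0.011) and 1 did not pass (-0.18, 0.445). Another fell in DFAT (-0.53, adjusted p = 0.0138), with low means of 3.32 in DFAT and 3.86 in MA. The mean over the probe sets of SLC11A2 passed in neither dedifferentiation (0.0899 and 0.256). The surface zinc carrier SLC39A1 rose in DFAT (0.77 ± 0.17 SE, adjusted p = 0.00536), not with the actin covariate (0.28, adjusted p = 0.427). SLC30A5, which loads zinc into the secretory pathway, rose in DFOG (0.85 ± 0.23 SE, adjusted p = 0.0214). Without DFOG 1 the DFOG rises of SLC39A7 (0.59, adjusted p = 0.221), SLC11A2 (0.0552) and SLC30A5 (0.207) were lost, and those of SLC39A7 and SLC30A5 also without GC 2 (0.0859 and 0.069) or GC 3 (0.0809 and 0.0751) and with the actin covariate (0.31, adjusted p = 0.393, and 0.44, 0.308). Poly-A centring took the call from all 3 as well (0.589 to 0.9), and the mean over probe sets from SLC30A5 (0.45, 0.124). In DFAT, SLC39A7 was 0.79 with the actin covariate (0.0333). The falls were of SLC31A2, a copper carrier, in DFAT (-1.31 ± 0.22 SE, adjusted p = 8.93e-04), lost with poly-A centring (-0.69, 0.116), and of SLC30A3, a vesicular zinc carrier, in DFOG (-1.26 ± 0.18 SE, adjusted p = 3.41e-04), which was -0.82 as the mean over its probe sets (0.00563).

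The carriers of organic solutes held the largest fall in DFAT. Of the 20, 2 rose and 4 fell in DFAT, and 2 rose and 3 fell in DFOG (4 and 3, and 1 and 7, with poly-A centring, and 1 and 4, and 2 and 1, with the actin covariate). SLC22A3 encodes OCT3, which takes up noradrenaline and other organic cations and is known in mice to clear catecholamines from fat tissue. It had 3.60, 3.38 and 3.34 in DFAT, against 9.48, 9.60 and 9.67 in MA. All DFAT samples were low, at the level of DFOG (3.25 and 3.34) and GC (3.15, 3.46 and 3.18). It fell 70.6-fold in DFAT, -6.14 ± 0.15 (SE, adjusted p = 1.60e-09).

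SLC5A6 encodes the sodium-coupled carrier of biotin and pantothenate, cofactors of fatty acid synthesis. It had 7.44, 7.91 and 7.75 in DFAT, against 10.61, 10.66 and 10.84 in MA. It had 8.57 and 7.92 in DFOG, against 6.65, 5.98 and 6.52 in GC. The 2 origins went opposite ways without overlap, with -3.004 ± 0.23 (SE, adjusted p = 2.04e-06) in DFAT and 1.86 ± 0.25 (SE, adjusted p = 2.62e-04) in DFOG. SLC46A3, a lysosomal carrier, fell in DFAT by 3.35 (adjusted p = 1.44e-06) and was -0.35 ± 0.27 (SE, adjusted p = 0.431) in DFOG.

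SLC6A4 encodes the serotonin carrier. It had 4.11 and 4.37 in DFOG, against 7.43, 7.63 and 8.68 in GC. DFOG lay far below GC, at the low level that DFAT and MA also had, and the fall was 12.7-fold, -3.67 ± 0.34 (SE, adjusted p = 1.37e-05). SLC22A5, the carnitine carrier OCTN2, fell in DFOG by 1.15 (adjusted p = 0.027), lost without DFOG 1 (-0.76, 0.28), GC 2 (-1.04, 0.0829) or GC 3 (-1.08, 0.0798) and with the actin covariate (-0.71, 0.295). SLC46A1, a folate carrier, fell by 1.23 in DFAT (adjusted p = 1.37e-04) and by 0.67 in DFOG (adjusted p = 0.0183). The DFOG fall was lost without DFOG 1 (adjusted p = 0.073), GC 2 (0.063) or GC 3 (0.0591), with the actin covariate (-0.51, 0.183) and with the mean over its probe sets (-0.39, 0.119), and the DFAT fall with poly-A centring (-0.61, 0.0864).

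SLC44A2, of the choline carrier family, rose in DFAT by 1.58 ± 0.29 (SE, adjusted p = 0.00161), and the riboflavin carrier SLC52A2 by 0.58 ± 0.19 (SE, adjusted p = 0.0368). The SLC52A2 call was lost in the fit of DFAT and MA alone (0.0576), with the actin covariate (0.42, 0.402) and without any 1 MA sample, DFAT 2, DFAT 3 or GC 2 (adjusted p = 0.0523 to 0.131). SLC45A3 rose in DFOG by 0.71 ± 0.22 (SE, adjusted p = 0.0321), a call lost without GC 1 (0.0624) or GC 3 (0.0955), with a trended robust variance (0.0523) and with poly-A centring (0.01, 0.975).

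Among the 4 lipid carriers SLC27A1, the fatty acid transport protein FATP1, fell in both. It had 5.93, 5.95 and 6.10 in DFAT, against 7.18, 7.09 and 7.31 in MA. It had 6.28 and 6.32 in DFOG, against 7.37, 7.93 and 7.87 in GC. Cultured samples were lower throughout, with changes of -1.20 ± 0.17 (SE, adjusted p = 2.23e-04) in DFAT and -1.42 ± 0.19 (SE, adjusted p = 2.23e-04) in DFOG, of which the DFAT fall was lost with poly-A centring (-0.58, 0.123). Of 5 nucleoside and nucleotide sugar carriers, SLC35A4 rose in DFAT (0.85 ± 0.18 SE, adjusted p = 0.00401) and in DFOG (0.85 ± 0.20 SE, adjusted p = 0.0105). The DFOG call was lost without DFOG 1 (0.57, adjusted p = 0.15) and with poly-A centring (0.15, 0.721), and both with the actin covariate (0.217 and 0.142) and with the mean over its probe sets (0.052 and 0.0726). Of the non-transporters, the scaffold SLC9A3R1 fell in DFAT (-1.33 ± 0.34 SE, adjusted p = 0.0106) and in DFOG (-2.45 ± 0.38 SE, adjusted p = 6.51e-04). SLC2A4RG, a factor that binds the GLUT4 promoter, rose in DFOG (1.57 ± 0.30 SE, adjusted p = 0.00242) and was -0.20 ± 0.26 (SE, adjusted p = 0.628) in DFAT. Poly-A centring took the call from the DFAT fall of SLC9A3R1 (-0.71, adjusted p = 0.147) and the rise of SLC2A4RG (0.87, 0.0504), and the actin covariate put SLC9A3R1 at -2.07 in DFAT (0.0117).

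Set side by side, 8 SLC genes rose in both dedifferentiations and 3 fell in both, or 7.21% and 2.70%. Of all probe sets 5.91% rose and 4.04% fell in both, and of named genes 8.35% and 5.07%. Another 4 (SLC5A6, SLC25A17, SLC25A33 and SLC25A5) fell in DFAT and rose in DFOG, and 1 (SLC2A8) rose in DFAT and fell in DFOG, or 3.60% and 0.90%, against 1.57% and 1.44% of all probe sets and 2.14% and 1.60% of named genes. Neither change passed for 56, or 50.5%, against 45.4% of named genes. A test of the difference between the changes found 13 SLC genes more positive in DFAT and 21 more negative. Over all probe sets these shares were 11.6% and 11.7%, and over named genes 13.2% and 15.9%. Poly-A centring gave 63 and 7, with the overall median at 1.27.

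The largest positive differences were those of SLC41A1 (3.89 ± 0.54 SE, adjusted p = 3.56e-04), SLC6A4 (3.52), SLC1A6 (2.72), SLC38A1 (2.52), SLC25A12 (2.40) and SLC5A4 (1.90). SLC41A1, SLC6A4 and SLC5A4 fell in DFOG and did not pass in DFAT, and the other 3 rose in DFAT and did not pass in DFOG. The largest negative ones were those of SLC22A3 (-6.17 ± 0.22 SE, adjusted p = 5.48e-08), SLC1A1 (-5.07, and -1.91 for the mean over its probe sets), SLC5A6 (-4.87), SLC46A3 (-3.003), SLC36A2 (-2.61) and SLC25A17 (-2.40). These 12 passed the test under every alternative run.

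**Figure D5:**
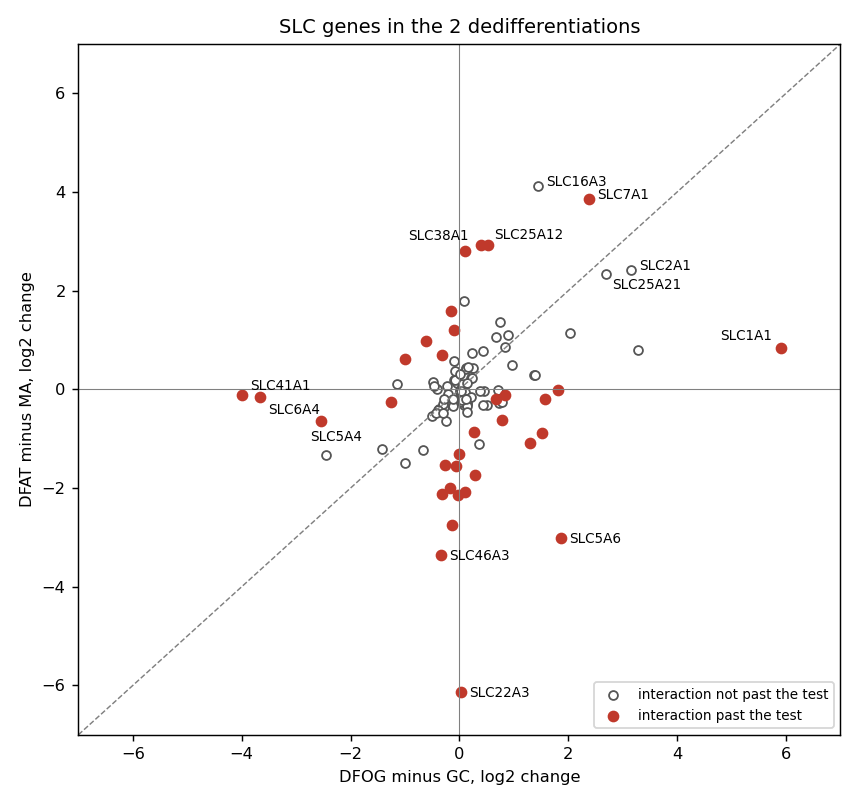
Log2 change in DFAT minus MA (vertical) against that in DFOG minus GC (horizontal) for each SLC gene. Filled points are genes whose changes differed by the interaction test, and the dashed line marks equal changes. SLC7A1 and SLC2A1 lie at the upper right, SLC22A3 at the bottom and SLC1A1 at the far right.

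Before culture, mature adipocytes and granulosa cells differed in 55 SLC genes, 31 higher and 24 lower in MA. Of all probe sets, 20.7% were higher and 19.7% lower in MA, and of named genes 26.8% and 22.6%. Poly-A centring turned the balance to 14 higher and 78 lower, with the median of all probe sets at -1.20. The SLC genes furthest above GC were SLC22A3 (6.32 ± 0.15 SE, adjusted p = 6.09e-10), SLC2A5 (4.41 ± 1.05 SE, adjusted p = 0.00579), SLC5A6 (4.32), SLC1A3 (4.24), SLC1A5 (3.52) and SLC2A12 (2.89). Those furthest below were SLC41A1 (-4.46 ± 0.36 SE, adjusted p = 2.02e-06), SLC6A4 (-3.45), SLC16A3 (-3.13), SLC38A1 (-2.98), SLC2A3 (-2.80) and SLC9A3R1 (-2.26). By class, MA was higher for 9 and lower for 4 of 21 mitochondrial carriers, higher for 7 and lower for 3 of 17 amino acid carriers, and higher for 3 and lower for 5 of 13 sugar carriers.

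The cultured cells differed in 7 SLC genes, 4 higher and 3 lower in DFAT than in DFOG. Over all probe sets 3.70% were higher and 4.31% lower, and over named genes 4.86% and 5.50%. With DFOG 2 and 3 as separate samples 8 were higher and 8 lower. Of the 7, 4 were carriers of the SLC1 family, of which SLC1A1 to SLC1A6 were measured. This family was picked out after the calls were seen. SLC1A6 (2.96 ± 0.30 SE, adjusted p = 7.62e-05), SLC1A3 (2.14 ± 0.28 SE, adjusted p = 4.87e-04) and SLC1A5 (1.70 ± 0.26 SE, adjusted p = 0.00151) were higher in DFAT, and SLC1A1 (-4.10 ± 0.34 SE, adjusted p = 2.06e-05) was lower, with -1.59 for the mean over its probe sets. SLC45A3, counted here with the organic solute carriers, was lower in DFAT as well (-1.64 ± 0.22 SE, adjusted p = 5.51e-04). SLC22A5 (1.50 ± 0.33 SE, adjusted p = 0.0171) and SLC25A24 (-1.47 ± 0.28 SE, adjusted p = 0.00724) lost the call without DFOG 1 (1.11, adjusted p = 0.211, and -1.28, 0.0914) and in the fit of DFAT and DFOG alone (0.123 and 0.0823). By the probe sets used, none of the 13 genes classed here as sugar carriers passed this test by limma (3 had an unadjusted p under 0.05). That class does not hold SLC45A3. For SLC2A1, for example, the levels of DFAT and DFOG listed above differed by 1.04 ± 0.32 (SE, adjusted p = 0.0855), with a 95% interval of 0.32 to 1.75. Another probe set of SLC37A4, whose used one did not pass, was lower in DFAT than in DFOG (-0.95, adjusted p = 0.0467).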

How the data were processed

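RNA of 12 arrays in 4 groups was analysed. The authors deposited log2 expression values made by RMA, which corrects background, equalises the arrays' distributions and summarises probe sets, per the submitters' processing notes. The RMA version is not given in the sources used here. They hold no detection calls, and the number of arrays limits the precision.

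Of 24123 probe sets, 124 controls were left out. The platform annotation, which can be old, gave 1 symbol to 10069 of the remaining 23999, several to 198 and none to 13732. Probe sets with several symbols named no gene, which left out 5 with an SLC symbol. The 111 SLC genes had 163 probe sets, 36 genes having more than 1. Matched by gene identifier, 109 of the 111 were in the RefSeq table, all under the same symbol. SLC7A5, SLC38A2 and SLC16A1 were not analysed here. No sequence or coordinate is given.

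With limma 3.58.1 in R 4.3.3, 1 mean per group was fitted over 11 samples (DFOG n = 2, the others n = 3) with 7 residual degrees of freedom. The contrasts compared DFAT with MA, DFOG with GC, these changes with each other (the interaction), MA with GC and DFAT with DFOG. Tests were two-sided and adjusted by Benjamini-Hochberg over all 23999 probe sets at 0.05, and were tested on simulated data. Figures used Python 3.11.15 and matplotlib 3.10.9.

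Classes were assigned by family. Genes were named as the largest changes past the test per class and direction (up to 6 in the sugar, amino acid, ion and mitochondrial classes, up to 4 in the others), with a fixed set always named, and as the 6 largest per direction in the other contrasts. The members, classes and lists were chosen with earlier results of these data known. Alternatives were another handling of DFOG 2 and 3, the replicate number as a block, 3 normalizations, the actin covariate, each comparison's own groups, other variance models, a filter on dim probe sets, averaging the probe sets of a gene and leaving out each array.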

Additional observations from a re-analysis of the deposited data

Results flagged for a closer look

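For 34 SLC genes the change in DFAT minus MA differed from that in DFOG minus GC by limma's interaction test. Each value below is the first change minus the second on the log2 scale, with no cause tested. Poly-A centring moves every such value up, with the median of all probe sets at 1.27. It gave 63 SLC genes more positive and 7 more negative. In this contrast, only the 12 largest differences named above were followed gene by gene under every alternative.

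More positive in DFAT among sugar carriers were SLC2A8 (1.62), SLC50A1 (1.58) and SLC5A4 (1.90), and more negative was SLC2A12 (-2.18). The monocarboxylate family member SLC16A13 was more negative (-2.02).

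Among amino acid carriers, SLC1A6 (2.72), SLC38A1 (2.52) and SLC7A1 (1.47) were more positive. More negative were SLC1A1 (-5.07), SLC36A2 (-2.61), SLC1A3 (-2.10), SLC1A5 (-1.82), SLC7A7 (-1.26) and SLC38A9 (-0.88).

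In the mitochondrial carrier family, SLC25A12 (2.40) and SLC25A6 (1.01) were more positive. The 7 more negative ones were SLC25A17 (-2.40), SLC25A33 (-2.38), SLC25A20 (-1.83), SLC25A4 (-1.80), SLC25A36 (-1.48), SLC25A5 (-1.39) and SLC25A46 (-1.14). With poly-A centring SLC25A17 was at -1.08. The changes in DFAT and DFOG were then 0.0072 and 0.08 for SLC25A5, -0.93 and -0.76 for SLC25A36, and -0.25 and -0.43 for SLC25A46.

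Ion and metal carriers had SLC41A1 (3.89), SLC26A6 (1.29) and SLC30A3 (1.02) on the positive side, and SLC31A2 (-1.30) and SLC30A5 (-0.97) on the negative side. Among organic solute carriers, SLC6A4 (3.52) and SLC44A2 (1.73) were more positive, and SLC22A3 (-6.17), SLC5A6 (-4.87) and SLC46A3 (-3.003) more negative. The factor SLC2A4RG was more negative as well (-1.77).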

How the results depend on the processing

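Of 228 recomputed counts of SLC genes, 217 stayed within 1.5 times those reported. With DFOG 2 and 3 as separate samples, DFAT minus DFOG had 8 higher and 8 lower. Poly-A centring gave 38 higher and 11 lower in DFAT minus MA, 8 and 32 in DFOG minus GC, 63 and 7 in the interaction, and 14 and 78 in MA minus GC, since it shifts all probe sets alike. Without DFOG 1, 13 rose in DFOG. Leaving out 1 array at a time gave 16 to 21 higher and 21 to 23 lower in DFAT minus MA, 13 to 23 and 7 to 10 in DFOG minus GC, 12 to 16 and 17 to 21 in the interaction, 26 to 32 and 20 to 24 in MA minus GC, and 3 to 6 and 2 to 4 in DFAT minus DFOG. Under poly-A centring SLC1A4 turned to -0.0202 and SLC38A9 to -0.0220 in DFOG minus GC. Of the named calls in DFAT minus MA, 16 of 39 were lost under at least 1 alternative, and in DFOG minus GC 15 of 30. Where a cause is not given, it was not tested. Median centring put the overall median at -0.13 in DFAT minus MA and 0.15 in MA minus GC.

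With the replicate number as a block, 19 rose and 23 fell in DFAT minus MA, 21 and 9 in DFOG minus GC, 14 and 21 in the interaction, 31 and 23 in MA minus GC, and 5 and 3 in DFAT minus DFOG. SLC2A3 (1.79, adjusted p = 0.057) and SLC52A2 (0.58, 0.0578) in DFAT and SLC1A4 (0.69, 0.0608) in DFOG did not pass in it, and SLC2A5 did in DFOG (3.57, 0.0282). Deviations of same-numbered DFAT and MA samples correlated at 0.0999, 0.168 and 0.126, each best with its own number. Those of DFOG and GC correlated at 0.604, 0.514 and 0.355, but DFOG 3 did so better with GC 2 (0.508) than with GC 3, and DFOG 2 and 3 count once. The labels do not say that equal numbers share an animal or culture. The main fit did not pair the samples by number, and a shared source was not tested. Changes towards the floor of the array may be understated.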

Other observations

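Other transport proteins moved too. Of 13 measured ABC transporters, which pump substrates with ATP, 4 rose and 1 fell in DFAT, and 3 rose and 2 fell in DFOG (6 and 1, and 1 and 5, with poly-A centring). The drug efflux pump ABCB1 rose in DFAT (4.66) and fell in DFOG (-1.77), and so did ABCG2 (1.97 in DFAT and -0.78 in DFOG). ABCD3, a peroxisomal fatty acid transporter, fell in DFAT (-1.70) and changed by 0.50 ± 0.18 (SE, adjusted p = 0.0656) in DFOG. ABCC6 rose in both (1.47 in DFAT and 2.36 in DFOG).

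Of 5 aquaporins, limma called 0 higher in DFAT (0 also at an unadjusted p under 0.05) and 2 lower. They were AQP3, which passes water and glycerol (-4.94), and AQP11 (-3.79). In DFOG the water channel AQP1 rose (3.44) and AQP11 fell (-1.34). Of 3 organic anion carriers of the SLCO family, SLCO2B1 fell in DFAT (-0.78). In DFOG limma called 0 of them (1 was lower at an unadjusted p under 0.05). The call of SLCO2B1 was lost with poly-A centring, which called 1 of the 3 lower in DFOG.

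Several SLC genes had more than 1 probe set, and these did not always give the same call. Of 52 further probe sets, 10 were called the same way as the one used in DFAT minus MA, 35 were called in neither, 6 in 1 of the 2 and 1 (SLC11A2) the opposite way. In DFOG minus GC the counts were 8, 30, 14 and 0. For the fatty acid transport family member SLC27A6, a further probe set averaged 3.13 in DFAT and 4.69 in MA and fell by 1.55 (adjusted p = 2.19e-05), while the one used gave -0.40 ± 0.20 (SE, adjusted p = 0.174).

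Among the 27 SLC genes with no group mean of 6 or more, the vitamin C carrier SLC23A1 was the 1 that differed in any of the 5 contrasts, higher in MA than in GC by 0.64 ± 0.20 (SE, adjusted p = 0.0223). Another probe set of SLC23A1 did not pass there (-0.13, adjusted p = 0.775).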
